A study of Mus musculus with 47 samples.

Results

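At zeitgeber time 22 (ZT22, hours counted from lights on, so late in the dark phase), whole retinas of 20-month-old mice were compared with those of 6-week-old mice by messenger RNA sequencing. A gene entered the comparison when its deposited value reached 0.5 RPKM (reads per kilobase of exon and per mega reads) in at least 4 of the 8 libraries, whichever age they came from. This left 14426 of 57180 genes, of which 346 carry no symbol in the annotation used here. The aged group was the retina of 20-month-old C57BL/6 mice at ZT22 (4 libraries) and the young group the retina of 6-week-old C57BL/6 mice at ZT22 (4 libraries), all kept on a light-dark cycle, with no genetic alteration or drug named in the labels. Each library was made from polyadenylated RNA of right eyes dissected under dim red light, and the values implied totals (M, mega reads) of 46.5, 36.2, 37.6 and 37.0 M reads in aged replicates 1 to 4 and 39.3, 35.4, 34.8 and 34.5 M reads in young replicates 1 to 4. All 47 libraries of the series gave a common estimate of the spread between mice. The other 39, from different mice at 5 other times, gave the age difference at the other hours. The tests at ZT22 and over the other times thus share 1 estimate of the spread.

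The retina is a layered neural tissue in which rod photoreceptors are by far the most numerous cells, and its messenger RNA is therefore dominated by the phototransduction genes of rods. Rods renew their light-sensitive outer segments every day, and the pigment epithelium behind them takes up the shed tips shortly after lights on, so the hours before dawn are those that precede shedding. Many retinal transcripts follow a daily clock, and aging of the mouse retina is known for slow loss of neurons, thickened basement membranes and low-grade glial and immune activation.

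The tissue carried the markers of its label. Prph2, a structural protein gene of photoreceptor outer segments, was at 3404 ± 375 RPKM in aged and 3123 ± 289 RPKM in young retinas, and the blue cone opsin Opn1sw was at 249 ± 35.6 RPKM in aged and 242 ± 17.6 RPKM in young retinas (SD, n = 4 each). None of the 5 tested sex-linked genes and none of the 3 tested genes that tell C57BL/6 substrains apart passed the test for age. Transcripts of tissues that lie against the retina were present in unequal amounts. The summed level of 15 pigment epithelium genes was 146, 146, 55.1 and 62.7 RPKM in aged replicates 1 to 4, against 61.2, 54.9, 71.7 and 71.9 RPKM in young replicates 1 to 4. Aged replicates 1 and 2 thus stood above all other libraries, and the remaining 2 aged libraries lay within the young range. The summed level of 21 lens genes was 694, 809, 182 and 216 RPKM in aged replicates 1 to 4 and 16.3, 2404, 471 and 36.0 RPKM in young replicates 1 to 4, with no separation by age. The summed level of the 7 blood genes in the table was 190, 132, 201 and 823 RPKM in aged replicates 1 to 4 and 55.6, 38.8, 93.5 and 294 RPKM in young replicates 1 to 4, and the groups overlapped only through young replicate 4. No cornea or lymphocyte marker reached the level needed for testing. The cornea marker Aldh3a1 was at 2.90, 1.99, 0.22 and 1.77 RPKM in aged replicates 1 to 4. In young replicates 1 to 4 it was at 0.13, 0.20, 0.030 and 0.24 RPKM. The ages overlapped through aged replicate 3, and the difference was not tested.

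**Figure D1:**
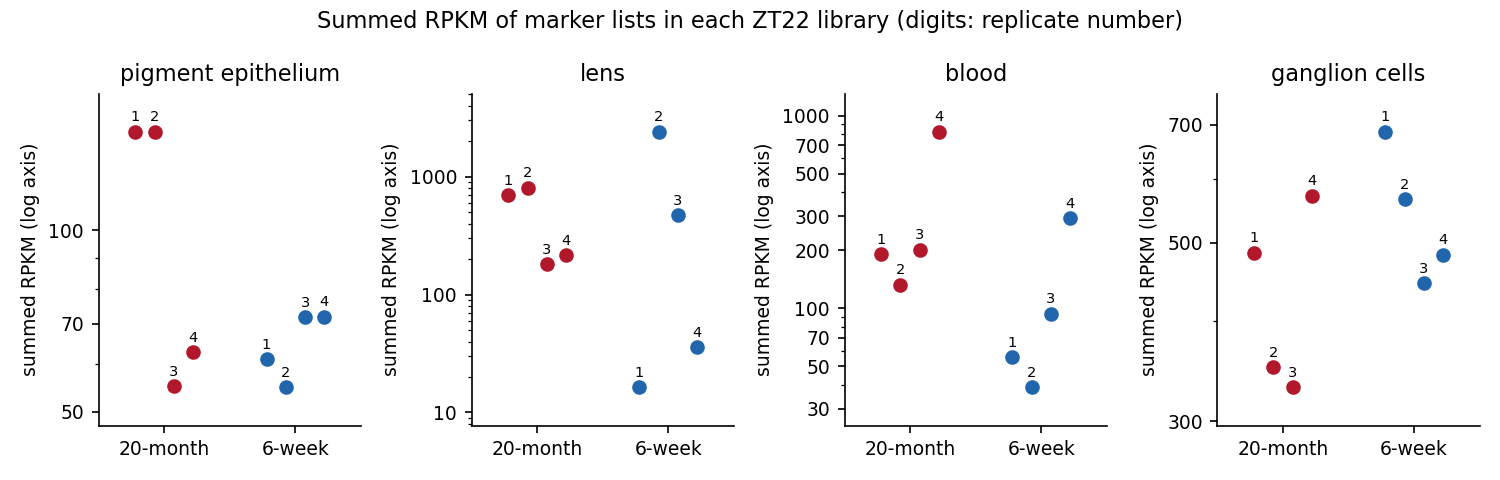
Summed RPKM (log axis) of marker lists of pigment epithelium, lens, blood and ganglion cells in each ZT22 library, 20-month at left and 6-week at right, each point 1 library with its replicate number. Aged replicates 1 and 2 were highest for pigment epithelium at 146 RPKM each, young replicate 2 for lens at 2404 RPKM and aged replicate 4 for blood at 823 RPKM.

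With all libraries in the fit, few transcripts passed the test for age at this hour, and nearly all of those were higher in aged retinas. Both the number and the share of falls depended on the fit, as given below. Aged retinas held more transcript of Glb1l3, a beta-galactosidase-like gene, of the basement membrane collagen chains Col4a3 and Col4a4, of Hdc, which forms histamine, and of Csrp3, a LIM protein best known from striated muscle. Of 14426 tested genes, 17 were higher (0.118%) and 1 was lower (0.00693%) in aged retinas with an adjusted p below 0.05 and a fold change above 1.5, by limma on log2(RPKM + 0.5) with Benjamini-Hochberg adjustment. Without the fold minimum, 21 were higher (0.146%) and 1 was lower (0.00693%), 22 in all (0.153%). In all 22 genes the 4 aged values lay wholly above or wholly below the 4 young values, which was the case for 2.72% (aged above) and 3.65% (aged below) of all tested genes. The 22 were chosen by a test on these same values, so their separation is no further support. For 3 of them, Btnl9, Rdh1 and Gm47480, every young value lay under the 0.5 RPKM minimum, so they entered the test only through the aged libraries in which they were high and their separation supports nothing. At an unadjusted p under 0.05 there were 595 genes (4.12%). The median log2 difference over all tested genes was -0.04.

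The number of genes called depended on which libraries set the spread. Same-numbered libraries of both ages met the pairing rule given under processing, but so did some differently numbered ones, so pairing is not established. With the replicate number as a block, 11 genes were called instead of 18. Of the 22 genes that passed at any fold, 14 still passed with the block. The 8 lost were Pls1, Ppp1r3g, Alpk2, Mef2b, Sgk1, 6530402F18Rik, Gm47480 and 2410124H12Rik. The fit on the 8 ZT22 libraries alone called 1 gene, AC113104.1. The count was 8 without aged replicate 1, 9 without aged replicate 4, and 10 without young replicate 1 or without young replicate 2. Young replicate 4 of ZT10 and aged replicate 3 of ZT6 stand apart from the rest of the series. They had 19361 and 19310 genes above 0, against 22407 or more in every other library. A fit that omits them gave 33 higher (0.229%) and 4 lower (0.0277%), and 86 higher (0.596%) and 36 lower (0.25%) without the fold minimum. All 22 genes passed in that fit too, which had 1852 genes at an unadjusted p under 0.05 (limma).

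**Figure D2:**
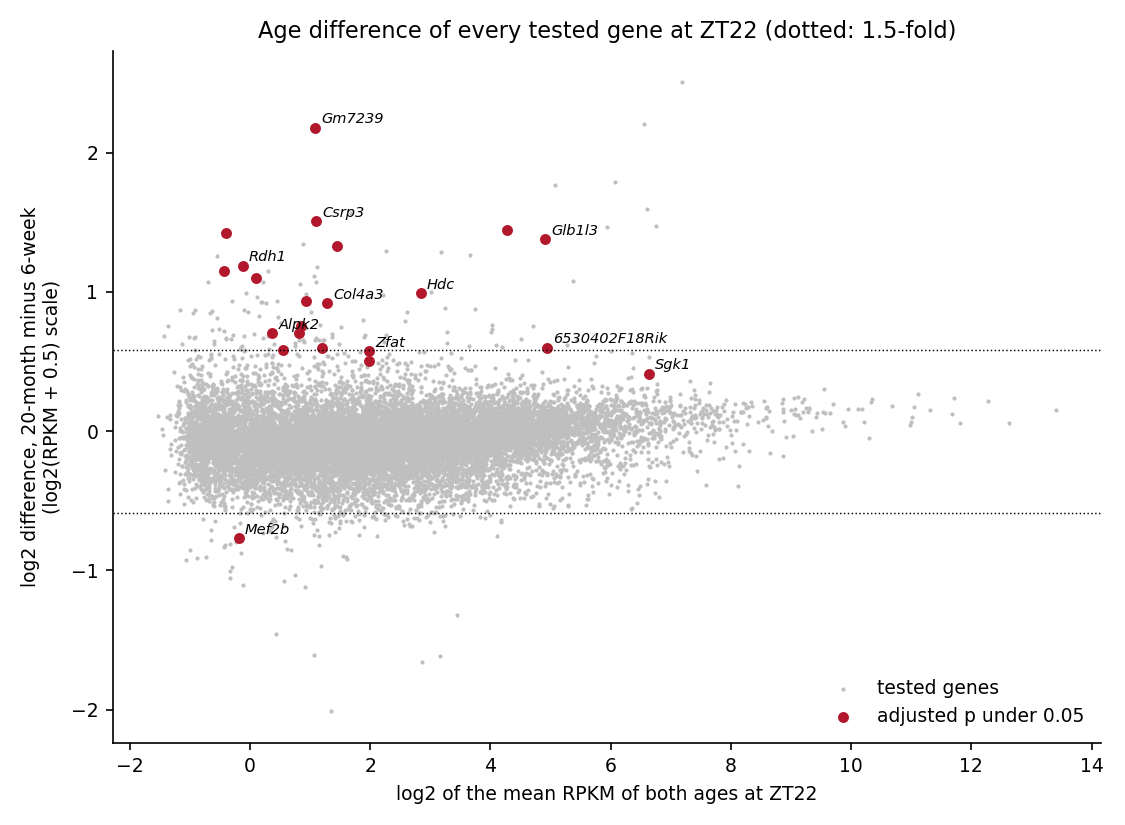
Each point is 1 of 14426 tested genes, with the log2 of its mean RPKM over both ages on the x axis and its log2 difference at ZT22 (20-month minus 6-week, log2(RPKM + 0.5) scale) on the y axis. The 22 genes at an adjusted p under 0.05 are red, 21 of them above 0 and 1 below it, and the dotted lines mark a 1.5-fold difference.

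Glb1l3 (ENSMUSG00000031966, chromosome 9) had the strongest evidence among genes with an established name. It encodes a relative of lysosomal beta-galactosidase whose own substrate is not established. Its level was 50.7, 30.4, 42.7 and 51.9 RPKM in aged replicates 1 to 4, against 15.7, 13.3, 15.8 and 21.02 RPKM in young replicates 1 to 4. The lowest aged library thus lay above the highest young one, and the log2 difference was 1.38 ± 0.17 (SE) at an adjusted p of 9.94e-06. Glb1, which encodes the lysosomal enzyme itself, was at 1.78 ± 0.54 RPKM in aged and 2.44 ± 0.27 RPKM in young retinas (SD, n = 4 each), a log2 difference of -0.40 ± 0.31 (SE) that did not pass (adjusted p = 0.92).

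Both adjacent type IV collagen genes rose. The chains they encode assemble with the alpha 5 chain into the network of specialised basement membranes, best known from the kidney glomerulus and also present in the eye. Col4a3 (ENSMUSG00000079465) was at 4.11, 2.57, 3.40 and 3.36 RPKM in aged replicates 1 to 4, against 1.28, 1.55, 1.86 and 1.42 RPKM in young replicates 1 to 4. Col4a4 (ENSMUSG00000067158) was at 2.74, 2.19, 2.27 and 2.35 RPKM in aged replicates 1 to 4, against 1.23, 1.23, 1.02 and 1.35 RPKM in young replicates 1 to 4. Neither gene's groups overlapped, and aged replicate 1 was highest for both. The log2 differences were 0.92 ± 0.13 (SE) for Col4a3 and 0.76 ± 0.12 (SE) for Col4a4, with adjusted p of 0.000107 and 0.000461. The partner chain Col4a5 was at 0.45 ± 0.23 RPKM in aged and 0.40 ± 0.17 RPKM in young retinas, and Col4a1, a chain of the common basement membrane network, was at 2.26 ± 1.02 RPKM in aged and 1.60 ± 0.47 RPKM in young retinas (SD, n = 4 each). Neither passed the test, with adjusted p of 0.95 for Col4a5 and 0.92 for Col4a1. Of 12 tested collagen and matrix genes, Col4a3 and Col4a4 rose and 10 did not pass.

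Col4a3 and Col4a4 lie head to head on opposite strands of chromosome 1 and are known to be transcribed from a shared promoter. The stretch between their starts in RefSeq (GRCm38.p6, chr1:82586850-82586920, minus strand, 71 bases, 69.0% G or C) is shown because both genes that rose begin at its ends, Col4a4 at the 3′ end as written.
Col4a3 to Col4a4: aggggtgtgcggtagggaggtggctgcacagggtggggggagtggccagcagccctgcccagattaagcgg
For Glb1l3, the named rise with the smallest adjusted p, Csrp3, the one with the largest log2 difference, and the histamine enzyme gene Hdc, chosen for its function after its values were seen, the 250 bases before the RefSeq start are given on the gene's strand, all 3 on the minus strand of GRCm38.p6: Glb1l3 at chr9:26860824-26861073, Hdc at chr2:126618679-126618928 and Csrp3 at chr7:48848052-48848301. Capitals mark a GC box (GGGCGG).
Glb1l3: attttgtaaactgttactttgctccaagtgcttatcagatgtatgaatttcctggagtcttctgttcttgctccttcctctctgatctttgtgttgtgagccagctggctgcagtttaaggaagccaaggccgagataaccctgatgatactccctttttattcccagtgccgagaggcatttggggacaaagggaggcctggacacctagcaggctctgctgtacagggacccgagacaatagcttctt
Hdc: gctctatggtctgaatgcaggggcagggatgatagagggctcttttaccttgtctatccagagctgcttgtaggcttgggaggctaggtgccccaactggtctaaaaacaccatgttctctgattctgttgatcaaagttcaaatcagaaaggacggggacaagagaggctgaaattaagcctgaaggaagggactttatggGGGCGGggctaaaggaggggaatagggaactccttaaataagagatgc
Csrp3: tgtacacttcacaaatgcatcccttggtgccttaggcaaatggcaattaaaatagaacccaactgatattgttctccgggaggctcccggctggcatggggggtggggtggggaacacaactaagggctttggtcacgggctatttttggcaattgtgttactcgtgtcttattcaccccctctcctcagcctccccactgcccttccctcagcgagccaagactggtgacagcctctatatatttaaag
On both strands of such 250-base windows, a CRX core (TAATCC, the letters bound by the photoreceptor factor CRX) occurred in 6.25% of 32851 windows, a clock E-box (CACGTG) in 6.02% and a GC box (GGGCGG) in 32.7%. The 12 named genes with a window have 20 windows, since a gene may have several starts, and of these 4 held the CRX core (Rdh1, Sgk1 and Tmem116), 2 the E-box (Sgk1 and Zfp791) and 6 the GC box (Hdc, Mef2b, Ppp1r3g, Sgk1 and Tmem116). Windows of 1 gene can overlap and are not independent. The 4 stretches printed above held neither the CRX core nor the E-box.

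Hdc (ENSMUSG00000027360), which encodes histidine decarboxylase, the enzyme that makes histamine, was at 13.0, 7.57, 8.25 and 10.2 RPKM in aged replicates 1 to 4, against 4.41, 4.22, 5.05 and 4.56 RPKM in young replicates 1 to 4. The young libraries were tightly grouped and all lay below the aged ones, with a log2 difference of 0.99 ± 0.17 (SE) and an adjusted p of 0.00189. The histamine receptor Hrh3 was at 3.05 ± 0.86 RPKM in aged and 3.57 ± 0.84 RPKM in young retinas, and Hnmt, which inactivates histamine, at 2.49 ± 0.53 RPKM in aged and 2.69 ± 0.54 RPKM in young retinas (SD, n = 4 each). Neither passed. The prokineticin gene Prok1, which encodes a secreted ligand, was at 3.29, 2.23, 2.39 and 3.89 RPKM in aged replicates 1 to 4, against 1.88, 1.21, 1.52 and 2.07 RPKM in young replicates 1 to 4. Its groups did not overlap, yet the log2 difference of 0.66 ± 0.17 (SE) had an adjusted p of 0.14, and of 0.036 without the 2 libraries that stand apart.

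Csrp3 (ENSMUSG00000030470) showed the largest log2 difference among the genes named by the rule. It was at 4.39, 2.02, 2.92 and 4.36 RPKM in aged replicates 1 to 4, against 0.77, 0.56, 0.92 and 1.14 RPKM in young replicates 1 to 4, a log2 difference of 1.51 ± 0.29 (SE) at an adjusted p of 0.00808. All aged libraries lay above all young ones, and without aged replicate 1, aged replicate 4 or young replicate 2 the gene no longer passed. Both tested genes of the skeletal muscle list, Mylpf and Pvalb, had log2 differences of 0.06 ± 0.27 and 0.08 ± 0.24 (SE). Neither passed. Pvalb, at 15.76 to 35.65 RPKM, stood far above the rest of that list, and whether it reports on muscle here was not tested. Ckm, near the floor and untested, was at 0.096 to 0.14 RPKM in aged and 0.030 to 0.050 RPKM in young libraries. Acta1, also untested, overlapped between the ages, and the remaining genes of the list were at or near 0. Alpk2 (ENSMUSG00000032845), a kinase gene of the alpha family, was at 2.35, 1.38, 1.06 and 2.19 RPKM in aged replicates 1 to 4 and 0.83, 1.01, 0.93 and 0.61 RPKM in young replicates 1 to 4, a log2 difference of 0.70 ± 0.15 (SE) at an adjusted p of 0.0375, and of 0.15 with the replicate block. The lowest aged library was only slightly above the highest young one.

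Among genes of metabolism, Rdh1 (ENSMUSG00000089789), a retinol dehydrogenase of a cluster of similar genes, was at 1.86, 1.31, 0.82 and 1.97 RPKM in aged replicates 1 to 4, against 0.36, 0.37, 0.39 and 0.28 RPKM in young replicates 1 to 4. All young values lay under the minimum of 0.5 RPKM, so the gene was tested only through its aged libraries. The log2 difference was 1.19 ± 0.20 (SE) at an adjusted p of 0.00154. The similarity of its neighbours makes the value uncertain where counting could split reads between them. Ppp1r3g (ENSMUSG00000050423), which encodes a glycogen-targeting subunit of protein phosphatase 1, was at 1.89, 1.21, 1.50 and 1.94 RPKM in aged replicates 1 to 4 and 0.57, 0.62, 0.13 and 0.76 RPKM in young replicates 1 to 4. Its log2 difference was 1.10 ± 0.24 (SE), with an adjusted p of 0.0302 and of 0.061 with the replicate block, and young replicate 3 rested on 12 reads. Of 16 tested retinoid cycle genes outside Rdh1, none passed, with a median log2 difference of 0.10 against -0.04 over all tested genes.

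The remaining named rises with a fold over 1.5 concern the cell surface and cytoskeleton. Btnl9 (ENSMUSG00000040283), a butyrophilin-like membrane protein gene of the immunoglobulin superfamily, was at 1.50, 0.87, 0.87 and 1.64 RPKM in aged replicates 1 to 4, against 0.39, 0.36, 0.062 and 0.26 RPKM in young replicates 1 to 4 (log2 difference 1.15 ± 0.18 (SE), adjusted p 0.000568), and it too was tested only through its aged libraries. Pls1 (ENSMUSG00000049493), which encodes the actin-bundling protein plastin 1, was at 3.23, 2.52, 2.60 and 3.13 RPKM in aged replicates 1 to 4 and 1.47, 1.73, 1.99 and 1.74 RPKM in young replicates 1 to 4 (log2 difference 0.59 ± 0.12 (SE), adjusted p 0.0262, and 0.11 with the replicate block). Tmem116 (ENSMUSG00000029452), a transmembrane protein gene, was at 2.69, 2.03, 1.98 and 2.54 RPKM in aged replicates 1 to 4 and 1.34, 1.22, 1.00 and 1.31 RPKM in young replicates 1 to 4 (log2 difference 0.71 ± 0.13 (SE), adjusted p 0.00808). Pls1 and Tmem116 did not overlap between the ages. Tmem116 overlaps Erp29 on the opposite strand in the annotation, and since no source used here states strand-specific counting, reads of the pair cannot be told apart.

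Sgk1, Zfat, Rimbp3 and Zfp791 rose by less than 1.5-fold on the log2(RPKM + 0.5) scale. Sgk1 (ENSMUSG00000019970), a kinase gene induced by glucocorticoids and known for control of ion transport, was by far the most abundant of the named genes, at 119, 110, 107 and 117 RPKM in aged replicates 1 to 4, against 80.9, 89.8, 81.1 and 88.0 RPKM in young replicates 1 to 4. The lowest aged library lay above the highest young one, but the adjusted p of 0.0491 for the log2 difference of 0.41 ± 0.09 (SE) was close to the threshold, and it was lost when any single ZT22 library was left out and with the replicate block (adjusted p = 0.14). Of 12 tested glucocorticoid-responsive genes, Sgk1 rose and 11 did not pass, among them Fkbp5 at 3.55 ± 0.36 RPKM in aged and 2.95 ± 0.12 RPKM in young retinas (SD, n = 4 each). Zfat, which encodes a zinc-finger transcription regulator, was at 5.43, 4.75, 4.07 and 5.14 RPKM in aged replicates 1 to 4 and 3.10, 3.07, 2.97 and 3.17 RPKM in young replicates 1 to 4, with a log2 difference of 0.57 ± 0.10 (SE) and an adjusted p of 0.00154. Rimbp3, known from the developing sperm head, and the zinc-finger gene Zfp791 had log2 differences of 0.58 ± 0.12 and 0.50 ± 0.11 (SE), with adjusted p of 0.0262 and 0.0265.

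Mef2b (ENSMUSG00000079033), a transcription factor gene of the MEF2 family, was the 1 gene that fell. It was at 0.49, 0.51, 0.76 and 0.33 RPKM in aged replicates 1 to 4, against 1.43, 1.15, 0.92 and 1.44 RPKM in young replicates 1 to 4. The log2 difference was -0.77 ± 0.17 (SE) at an adjusted p of 0.0329, and of 0.15 with the replicate block. The highest aged library was close to the lowest young one, the values rested on 17 to 79 reads per library, and the gene overlaps Borcs8 on the same strand in the annotation.

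**Figure D3:**
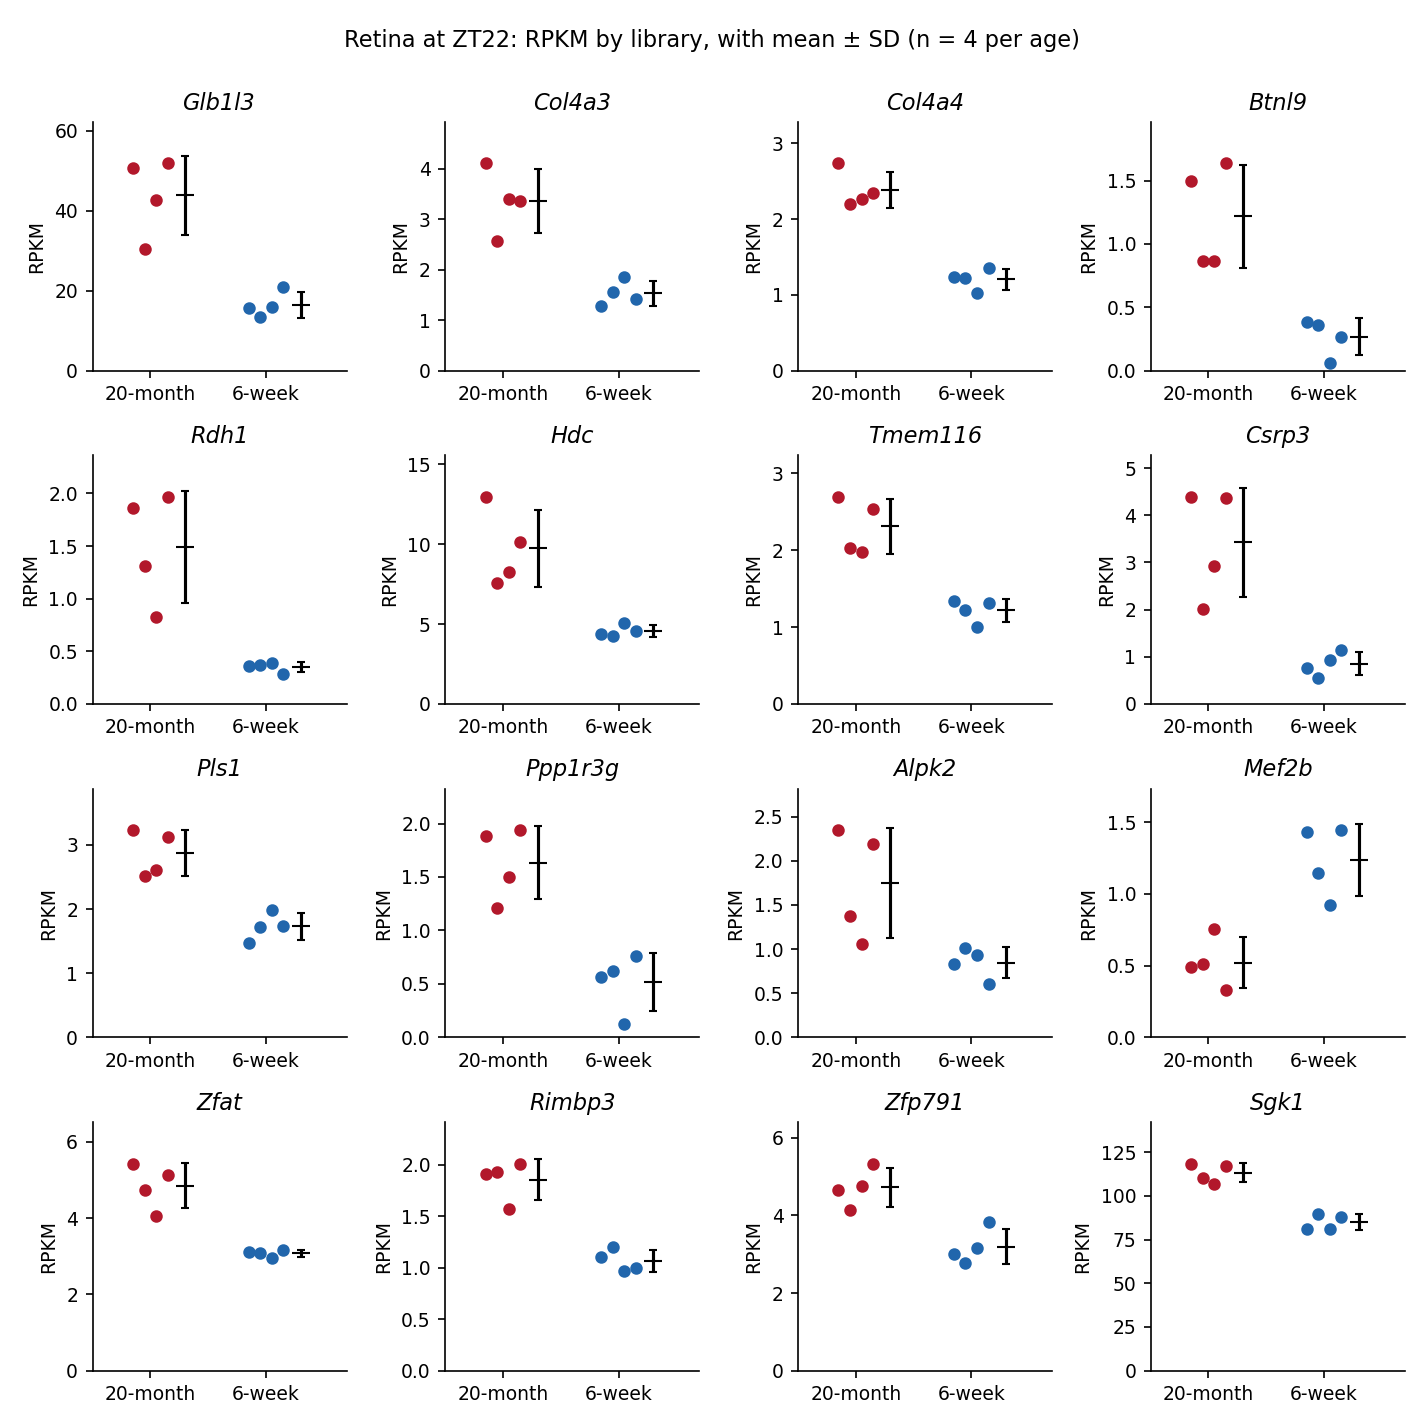
RPKM of the 16 named genes in each ZT22 library, 20-month at left and 6-week at right, with points from replicate 1 at left to replicate 4 at right and the mean ± SD of 4 libraries beside them. In every panel the ages do not overlap, and Mef2b is the 1 gene with lower values in the 20-month libraries, at 0.33 to 0.76 RPKM.

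The other 6 genes that passed carry clone or locus names and stood outside the rule for named genes. Gm7239, a processed pseudogene, had the smallest adjusted p of all (5.75e-06), with 4.38, 2.31, 2.25 and 6.35 RPKM in aged replicates 1 to 4 and 0.33, 0.29, 0.40 and 0.54 RPKM in young replicates 1 to 4. A pseudogene shares sequence with its parent gene, so its reads may be split between copies. AC113104.1 was at 29.6, 25.7, 25.1 and 33.8 RPKM in aged replicates 1 to 4 and 10.6, 11.3, 8.52 and 10.1 RPKM in young replicates 1 to 4, a log2 difference of 1.45 ± 0.23 (SE) at an adjusted p of 0.000568, and it was the 1 gene that passed in every alternative tried. Gm33497, 2410124H12Rik and Gm47480 had log2 differences of 0.93 ± 0.20, 1.33 ± 0.28 and 1.42 ± 0.31 (SE), and Gm47480 had no read in 1 young library. With the replicate block the adjusted p was 0.051 for 2410124H12Rik and 0.097 for Gm47480. The sixth, 6530402F18Rik, was at 39.2, 32.2, 37.1 and 40.0 RPKM in aged replicates 1 to 4 and 20.2, 25.7, 26.9 and 24.6 RPKM in young replicates 1 to 4, with a log2 difference of 0.60 ± 0.13 (SE) and an adjusted p of 0.0302, and of 0.14 with the replicate block.

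Glb1l3, Col4a3, Col4a4, Btnl9, Rdh1, Hdc, Zfat, AC113104.1 and Gm7239 still passed when any 1 of the 8 ZT22 libraries was left out. These fits kept the genes that entered with all 8 libraries. Btnl9 and Rdh1 reached 0.5 RPKM in the 4 aged libraries only, so without any 1 of these they would not have been tested. Their passing in those fits is therefore no further support. Of the other named genes, Csrp3 and Tmem116 were lost in 3 of these 8 fits (Tmem116 without aged replicate 1, aged replicate 4 or young replicate 3), and Pls1 in 5. Ppp1r3g, Alpk2, Mef2b, Rimbp3 and Zfp791 were lost in 6 of the 8 fits each, always including those without aged replicate 1, aged replicate 4 and young replicate 1. Gm33497, 2410124H12Rik and Gm47480 were lost in 5 of the 8 fits each, with adjusted p up to 0.28, 0.27 and 0.33, and 6530402F18Rik in 6, with an adjusted p up to 0.21.

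The rises were not of equal size in all aged mice. In 18 of the 21 genes that rose, aged replicates 1 and 4 held the 2 highest of the 4 aged values. This order was found in 13.7% of all tested genes and in 13.3% of the 5684 with a positive log2 difference. The summed level of 15 ganglion cell genes was 486, 351, 331 and 572 RPKM in aged replicates 1 to 4, so the same 2 libraries were also highest for these among the aged, against 686, 566, 446 and 483 RPKM in young replicates 1 to 4. Aged replicates 1 and 4 were also the highest of the aged for the amacrine sum (360, 306, 247 and 419 RPKM in aged replicates 1 to 4, against 382 to 488 RPKM in young), the microglia sum (30.3, 25.6, 25.4 and 31.7 RPKM in aged replicates 1 to 4, against 23.3 to 28.9 RPKM in young) and the antigen presentation sum (95.0, 90.6, 71.4 and 95.1 RPKM in aged replicates 1 to 4, against 75.7 to 91.1 RPKM in young). The same held for the sums of the astrocyte, cytosolic heat shock, histamine and prokineticin, and T and B cell lists. The rest of the 49 gene lists had another order. The histamine and prokineticin list holds Hdc, itself among the genes that rose, and the T and B cell sums were at most 0.93 RPKM in aged libraries. The pigment epithelium sum was instead highest in aged replicates 1 and 2, and the blood sum in aged replicate 4. The part of these markers in the rises was not tested. In bulk tissue, a change in the number of cells of a type and a change in RNA per cell cannot be told apart.

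The age differences seen at ZT22 were set against those of the other 5 sampling times, which come from other mice. Of the 22 genes that passed at ZT22, 20 also passed for the mean age difference over the other times, where 2.16% of tested genes were higher and 1.86% lower in aged retinas at an adjusted p under 0.05. All 22 had the same sign at each of the other 5 times. Glb1l3 had a log2 difference of 1.38 ± 0.17 at ZT22 and 1.38 ± 0.08 over the other times, with 1.10 at ZT2 and 1.68 at ZT6 as its lowest and highest. Hdc had 0.99 ± 0.17 at ZT22 and 1.02 ± 0.08 over the other times, and Rdh1 1.19 ± 0.20 at ZT22 and 1.29 ± 0.09 over the other times (log2 differences ± SE). For these 3 genes the difference at ZT22 and the mean of the other hours were less than 1 SE apart. Tmem116 was lower at ZT22 (0.71 ± 0.13) than over the other times (1.17 ± 0.06), where its single values ran between 1.01 and 1.38. Mef2b differed more at ZT22 (-0.77 ± 0.17) than over the other times (-0.23 ± 0.08), where it did not pass (adjusted p = 0.077). The other gene that did not pass there was 6530402F18Rik, with 0.60 ± 0.13 at ZT22 and 0.06 ± 0.06 over the other times (adjusted p = 0.72). The departures of ZT22 from the other times were -0.46 ± 0.15 for Tmem116, -0.54 ± 0.18 for Mef2b and 0.54 ± 0.14 for 6530402F18Rik (log2, SE), and none passed the test of that departure (adjusted p = 0.92 each).

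No gene passed the test of whether its age difference at ZT22 departs from that at the other times (0 of 14426, 0%, limma, adjusted p under 0.05). At an unadjusted p under 0.05, 462 genes did so (3.2%), and the voom alternative also called 0. Array weights, which let noisy libraries count less, called 27. The smallest p-values belonged to Rbm14, an RNA-binding coactivator gene, Acat1, which encodes a mitochondrial thiolase of ketone body and isoleucine metabolism, Coq8a of coenzyme Q synthesis, the DNA-binding protein gene Arid3b, Ppcs of coenzyme A synthesis, and Spty2d1, a histone chaperone gene, all with an adjusted p of 0.92. Acat1 was at 13.9, 12.7, 13.0 and 14.04 RPKM in aged replicates 1 to 4, against 16.4, 16.7, 17.7 and 19.0 RPKM in young replicates 1 to 4. Its ages did not overlap at ZT22, and its log2 difference was -0.37 ± 0.09 (SE) at ZT22 (adjusted p = 0.056) and -0.02 ± 0.04 over the other times. For Rbm14 the 2 values were 0.23 ± 0.09 and -0.15 ± 0.04, of opposite sign.

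**Figure D4:**
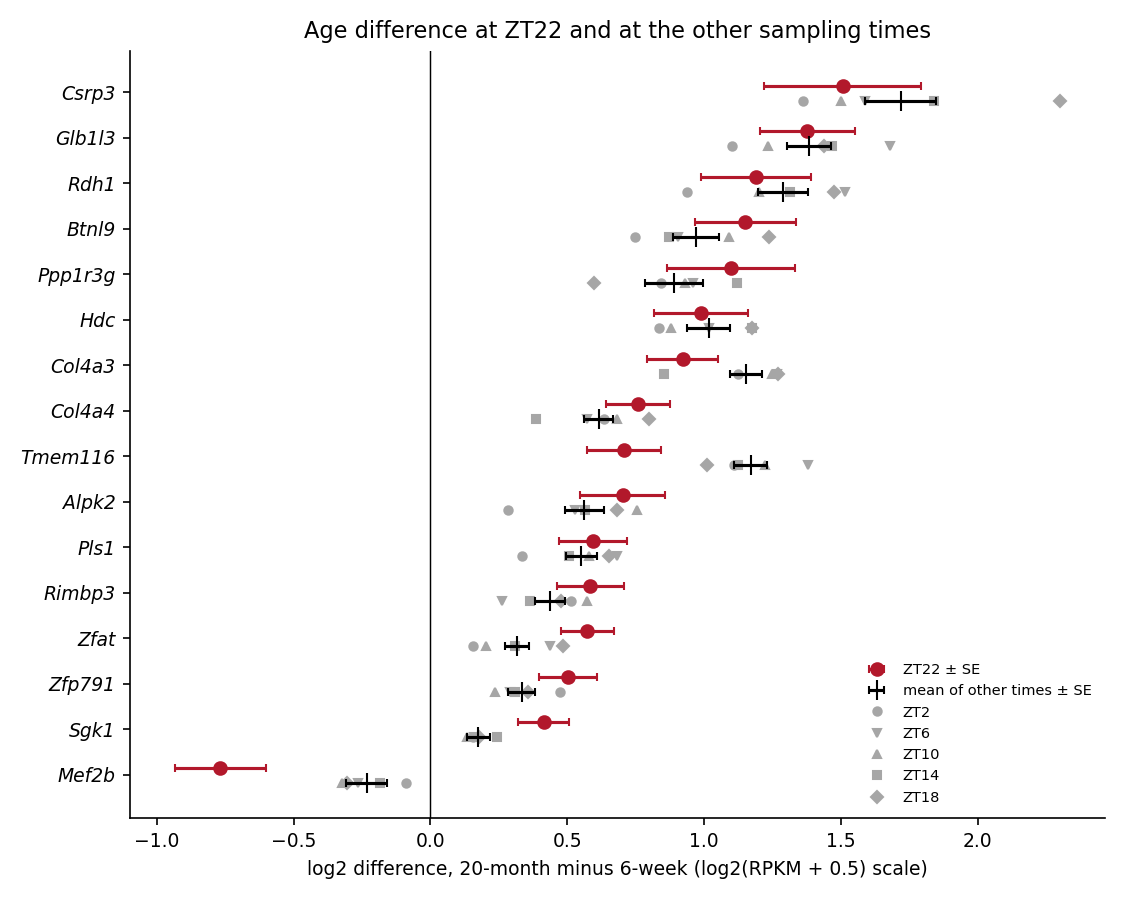
Log2 difference between 20-month and 6-week retinas of the 16 named genes, at ZT22 (red, ± SE), as the mean of the other 5 times (black bar, ± SE) and at each other time (grey). Each gene keeps its sign at all times, and Mef2b, at -0.77 at ZT22 and -0.23 over the other times, is the 1 gene below 0.

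The clock genes, whose feedback loop sets the daily rhythm, gave no call at ZT22. Of 24 tested members of the list, 0 passed (limma), 7 had a positive and 17 a negative log2 difference, and the median was -0.10 against -0.04 over all tested genes. Negative signs were the more common over all genes too, with 5684 of 14426 positive. Cry1, a repressor of the loop, came nearest, at 22.6, 22.2, 20.9 and 21.1 RPKM in aged replicates 1 to 4 and 20.0, 16.9, 17.1 and 20.3 RPKM in young replicates 1 to 4. All aged libraries lay above all young ones, with a log2 difference of 0.23 ± 0.06 (SE) at ZT22 (adjusted p = 0.28) and of -0.01 ± 0.03 over the other times. The repressor gene Bhlhe41 had a log2 difference of 0.17 ± 0.07 and the period genes Per1 and Per2 of -0.05 ± 0.14 and 0.23 ± 0.20 (SE). Nfil3, an output repressor, was at 7.80 ± 1.14 RPKM in aged and 8.31 ± 1.23 RPKM in young retinas (SD, n = 4 each), and its ages overlapped.

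Markers of the retinal cell types gave no call either, but their signs were uneven. Of all 14426 tested genes, 5684 had a positive log2 difference. Among 24 rod genes, 23 had a positive log2 difference (median 0.14, highest 0.35 for Guca1a, a calcium sensor of phototransduction). Gnat1, the rod transducin subunit, was at 3643 ± 457 RPKM in aged and 3079 ± 262 RPKM in young retinas (SD, n = 4 each). All 15 ganglion cell genes had a negative one (median -0.45), all 11 amacrine genes (median -0.26) and all 4 horizontal cell genes (median -0.29) as well, and so did 14 of 16 bipolar genes (median -0.27) and 13 of 16 genes of Müller glia (median -0.22). The 13 cone genes had 7 positive and 6 negative differences and a median of 0.01. The neurofilament gene Nefl of ganglion cells was at 90.8 ± 17.2 RPKM in aged and 124 ± 24.7 RPKM in young retinas, a log2 difference of -0.44 ± 0.51 (SE), and Slc17a6, the glutamate transporter of their vesicles, at 14.3 ± 5.38 RPKM in aged and 22 ± 6.46 RPKM in young retinas (SD, n = 4 each). No gene of these 7 lists passed, all with an adjusted p of at least 0.92, and the members of a list share their libraries and are not independent.

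Genes of glial reaction and immunity did not pass at this time. Gfap, the filament gene of astrocytes and reactive Müller glia, was at 4.95, 3.93, 4.45 and 4.22 RPKM in aged replicates 1 to 4, against 7.06, 5.92, 5.67 and 8.16 RPKM in young replicates 1 to 4. All 4 aged libraries were lower than all young ones, but the log2 difference of -0.55 ± 0.33 (SE) did not pass (adjusted p = 0.92), and over the other times it was 0.27 ± 0.15. The class I antigen gene H2-K1 was at 14.7, 12.6, 7.81 and 12.1 RPKM in aged replicates 1 to 4 and 9.56, 8.45, 9.55 and 9.04 RPKM in young replicates 1 to 4. Aged replicate 3 was the lowest of all 8 libraries, and the log2 difference was 0.32 ± 0.29 (SE) at ZT22 (adjusted p = 0.92), against 0.71 ± 0.13 over the other times. The lysozyme gene Lyz2 had a log2 difference of 0.65 ± 0.38 (SE) at ZT22, where it did not pass, and 0.88 ± 0.17 over the other times. Of 13 antigen presentation, 15 interferon response and 9 microglia genes tested, none passed, with medians of 0.11, 0.10 and 0.09. In the complement list, Cd59a, which shields cells from complement lysis, was nearest the threshold among 9 tested members, at 60.1, 56.9, 66.9 and 73.9 RPKM in aged replicates 1 to 4 and 42.7, 41.2, 42.0 and 50.5 RPKM in young replicates 1 to 4. Its ages did not overlap, and the log2 difference was 0.54 ± 0.12 (SE) at an adjusted p of 0.056.

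Genes of neighbouring tissue had the largest positive list medians without passing. Rpe65, the isomerase of the pigment epithelium that regenerates visual chromophore, was at 11.7, 11.0, 4.56 and 5.58 RPKM in aged replicates 1 to 4, against 3.92, 4.01, 3.92 and 4.08 RPKM in young replicates 1 to 4. The young libraries were nearly equal and the aged ones fell into a higher and a lower pair, with a log2 difference of 0.85 ± 0.47 (SE) and an adjusted p of 0.92. The haemoglobin gene Hbb-bs was at 83.3, 61.5, 94.4 and 389 RPKM in aged replicates 1 to 4 and 25.6, 18, 44.7 and 146 RPKM in young replicates 1 to 4, and Alas2, which starts haem synthesis in red cell precursors, had a log2 difference of 1.18 ± 0.43 (SE). All 5 tested blood genes had positive differences, with a median of 1.29, and aged replicate 4 was highest for each. Among the 4 haemoglobin genes, Hba-a1 and Hba-a2 are near copies, as are Hbb-bs and Hbb-bt, so the separate values within each pair are uncertain.

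Housekeeping and stress programmes differed little. The signs given here stand beside 5684 positive differences among all 14426 tested genes. Among 76 cytosolic ribosomal protein genes the log2 differences ran from -0.09 to 0.33 (median 0.13, 72 positive) and none passed. The 37 complex I genes (median 0.08), 31 proteasome genes (median 0.06), 21 glycolysis genes (median 0.11), 24 antioxidant genes (median 0.03) and 23 ribbon synapse genes (median 0.01) gave none either. In the list of cholesterol synthesis and uptake, 22 of 25 differences were negative (median -0.19), among them Insig1, a sensor of sterol level, at 22.9 ± 5.19 RPKM in aged and 31.0 ± 5.49 RPKM in young retinas (SD, n = 4 each), and none passed. Of 20 cytosolic heat shock genes, none passed. Dnajb1, a cochaperone that delivers clients to Hsp70, was at 26.7, 23.6, 27.6 and 26.9 RPKM in aged replicates 1 to 4 and 22.9, 18.4, 18.7 and 19.0 RPKM in young replicates 1 to 4. The lowest aged library lay just above young replicate 1, and the log2 difference was 0.40 ± 0.11 (SE) at an adjusted p of 0.28. The inducible Hsp70 gene Hspa1b, nearly identical to Hspa1a, was at 26.4 ± 1.28 RPKM in aged and 20.6 ± 0.68 RPKM in young retinas (SD, n = 4 each), with no overlap and an adjusted p of 0.92.

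**Figure D5:**
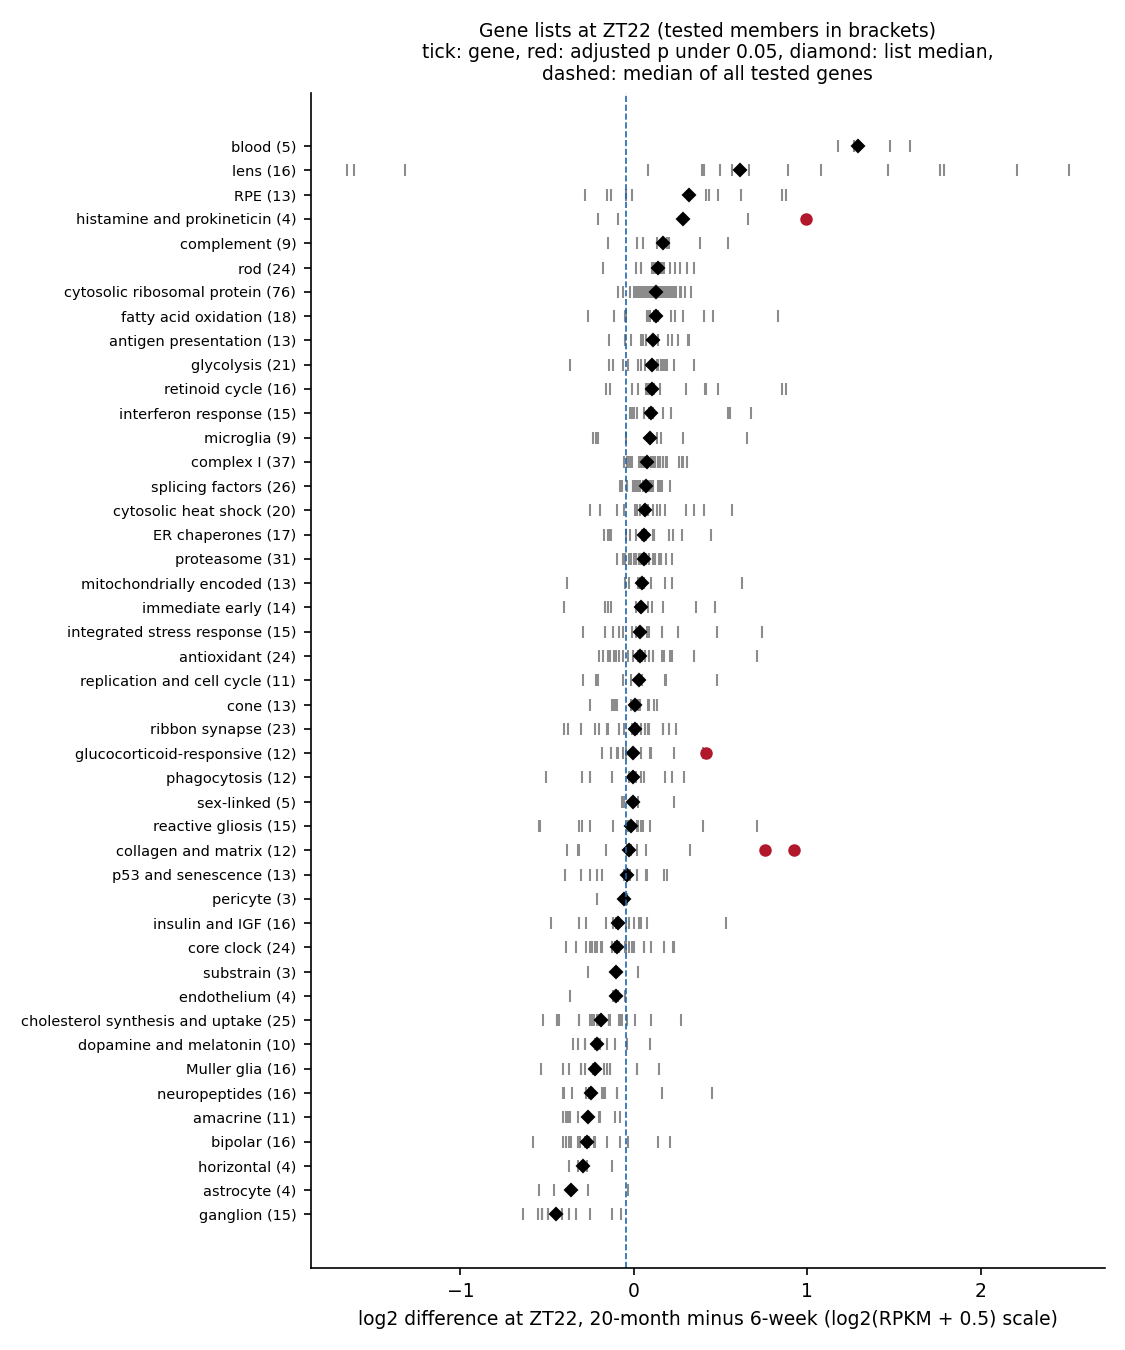
Log2 difference at ZT22 (20-month minus 6-week, log2(RPKM + 0.5) scale) of the tested members of each gene list, with the number of members in brackets. Ticks are genes, red points the members at an adjusted p under 0.05 (Col4a3, Col4a4, Hdc and Sgk1), diamonds list medians, and the dashed line the median of all tested genes, -0.04. Ganglion cells (median -0.45) stand at the bottom and blood (median 1.29) at the top.

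Without the 2 libraries of other times that stand apart, the smaller spread let 122 genes pass whatever the fold (0.846%). Of these, 107 had no overlap between the ages at ZT22, against 2.72% (aged above) and 3.65% (aged below) of all tested genes. The 122 were chosen by a test on these same values, so their separation is no further support. Of the 122, 89 also passed over the other times, where 12.5% of tested genes passed in that fit, and 92 had the same sign at all 5 other times. Genes described from here on were chosen after their values were seen. Dnajb1 (adjusted p = 0.00109), Cd59a (0.00822), the carnitine carrier Slc25a20 of mitochondrial fatty acid import (0.0333), the cyclin gene Ccnd1 (0.0363), the stress-induced factor Ddit3 (0.0345) and the splicing regulator Hnrnpl (0.0261) were the further list members that rose in that fit, beside Prok1. The ages of Ddit3 overlapped at ZT22. Hnrnpl, alone among these, did not pass over the other times in that fit (limma, adjusted p = 0.10). Its log2 difference was 0.21 at ZT22 and -0.06 over the other times. Tyro3, a receptor for the signals that mark shed outer segments and dying cells for uptake, was the 1 list member that fell. Tyro3 was at 3.59, 3.82, 3.04 and 3.27 RPKM in aged replicates 1 to 4, against 5.43, 4.97, 4.80 and 5.05 RPKM in young replicates 1 to 4. Its ages did not overlap, with a log2 difference of -0.50 ± 0.10 (SE) and an adjusted p of 0.00425 in that fit, and of 0.54 with all libraries. Its relatives Axl and Mertk had log2 differences of -0.25 and -0.03 with all libraries and did not pass.

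Further rises in that fit with small p-values included the copper transporter gene Slc31a2, at 57.1, 57.2, 56.2 and 60.2 RPKM in aged replicates 1 to 4 and 42.0, 46.97, 42.8 and 45.5 RPKM in young replicates 1 to 4. Hist3h2a, a histone gene with near copies, was at 23.01, 17.7, 19.3 and 21.8 RPKM in aged replicates 1 to 4 and 9.99, 12.5, 12.8 and 13.3 RPKM in young replicates 1 to 4. Falls included Acat1 (log2 difference -0.37 ± 0.07 (SE), adjusted p 0.0015) and Serinc5, a multipass membrane protein gene, at 2.86, 4.69, 3.01 and 2.58 RPKM in aged replicates 1 to 4 and 6.14, 5.09, 4.95 and 4.90 RPKM in young replicates 1 to 4. Chrnb4, a nicotinic acetylcholine receptor subunit gene, was at 0.89, 1.10, 0.81 and 0.50 RPKM in aged replicates 1 to 4 and 1.66, 1.55, 2.05 and 1.34 RPKM in young replicates 1 to 4. None of these 5 genes overlapped between the ages, and none passed with all libraries. In that fit the age difference of Slc31a2, Serinc5 and Chrnb4 was 0.38, -0.63 and -0.71 at ZT22, and 0.10, -0.67 and -0.60 over the other times (log2).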

How the data were processed

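The authors deposited RPKM values, with 1 column per library and no pooling. Build GRCm39 and the tools HISAT2 2.2.1, Subread 2.0.6 and FastQC 0.23.4 are named in the submitters' processing notes. No source used here gives the annotation, the strand setting or filters. The labels name 4 mice per age and time, and aged ZT18 has 3 libraries here. One column that matched no sample (1 in all) was not used. Symbols and biotypes came from GENCODE M21 (GRCm38), which has no coordinates of the authors' build, and promoter sequences from RefSeq, GRCm38.p6.

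Values at or above 0.5 RPKM in 4 of the 8 ZT22 libraries were tested on log2(RPKM + 0.5), a scale that understates changes of low genes, with limma 3.58.1 under R 4.3.3 (eBayes, trend, Benjamini-Hochberg over all 14426 genes). The fit held 12 means of age and time over 47 libraries. RPKM steps gave whole reads within 0.01 for 100% of tested genes, 1164 of them with a length searched to do so, and voom on these reads was an alternative that called 13 genes. The mean chi-square per gene between replicates was 14.2 to 89.3, above sampling noise. Same-numbered mice of both ages deviated together, with correlations of 0.109, 0.275, 0.27 and 0.153 over genes. This meets the rule used for pairing (each above 0.1) and is its only source, since the labels do not explain the numbers. Differently numbered pairs ranged from -0.386 to 0.385, the highest being aged 3 with young 4, so not every mouse deviated most like its own number. Some of these pairs also exceeded 0.1, so the rule cannot tell paired from unpaired mice.

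The comparison, the 49 gene lists and most tests were chosen with earlier results of these data known. Named were called genes at 1 RPKM or more in 1 age with an established symbol, then genes passing at any fold (up to 8 rises and 8 falls), up to 4 passing members per list, and the 6 smallest p-values for a difference between times. Other genes named were chosen after their values were seen. Of IDs that share a symbol, the one at the higher level stood in a list.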

Additional observations from a re-analysis of the deposited data

Results flagged for a closer look

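In 168 groups of 4 libraries, 76 genes and the marker sums of 8 lists were screened for a library far from the other 3. The screen found 11, not far from the share of about 1 in 20 that chance gives. All 11 were the highest of their group, on RPKM without a log. Aged replicate 4 stood apart for the blood list at 823 RPKM (next 201 RPKM), for Hbb-bs at 389 RPKM (next 94.4 RPKM) and for Alas2 at 6.84 RPKM (next 2.42 RPKM). The blood list holds both genes, so these finds are not separate. Young replicate 4 stood apart for Cd59a at 50.5 RPKM (next 42.7 RPKM), for the kinase gene Mapk12 at 4.42 RPKM (next 3.62 RPKM) and for Hspa1b at 21.7 RPKM (next 20.4 RPKM). Young replicate 1 was high for Dnajb1 at 22.9 RPKM (next 19.0 RPKM), for Serinc5 at 6.14 RPKM (next 5.09 RPKM) and for Glb1 at 2.85 RPKM (next 2.37 RPKM). Young replicate 2, the library with the highest lens sum, was high for Col4a1 at 2.31 RPKM (next 1.38 RPKM), and young replicate 3 for the actin-related gene Actr3b at 18 RPKM (next 17.2 RPKM). In Cd59a, Hspa1b, Dnajb1, Mapk12 and Actr3b the library so found still lay below every aged library.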

How the results depend on the processing

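The 22 genes that passed kept their direction under each alternative in which they were tested, while the counts moved. Against 18 called genes, 22 that passed at any fold and 16 called genes also passing over the other times, the fit without the 2 libraries that stand apart gave 37, 122 and 33, and array weights 80, 357 and 75 (76.2% of the 80 higher). The 8 ZT22 libraries alone gave 1 and 1, with 1615 genes at an unadjusted p under 0.05, and leave fewer libraries to set the spread. The replicate block gave 11 called, with the 8 libraries alone 8 and 10, and without the 2 libraries that stand apart (added after seeing the data) 32, 83 and 28. With voom 14 passed at any fold. Leaving out each ZT22 library gave 8 to 22 called genes, 9 to 25 at any fold and 8 to 20 also passing over the other times. A different age difference at ZT22 was called for 0 genes, and for 27 with array weights. Per1, near 0, changed sign with median-ratio scaling (0.0069), and Col4a5 without single libraries (range -0.059 to 0.17). Pseudocounts, filters, median-ratio scaling, quantile normalization and no variance trend left these counts of adjusted calls within 1.5 times. With no filter (30350 genes), 1763 genes had an unadjusted p under 0.05 at ZT22, and 1493 for a departure from the other times. Genes under 1 RPKM rest on few reads. Of the 22 genes, 4 differed by less than 1.5-fold on the log2(RPKM + 0.5) scale. For Rimbp3 and Zfat, 2 of these 4, the ratios of mean RPKM were 1.74 and 1.57.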
